A study of Bos taurus with 14 samples.

Results

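TSPAN5 (ENSBTAG00000012343), which encodes tetraspanin 5, is 1 of the 24616 genes listed in the counts of bovine endometrial explants cultured with or without sPIF, and 1 of the 13233 genes tested, those that reached 10 counts in each of the 14 libraries. It was chosen on its sPIF against Control values in these same libraries, so its sPIF against Control difference is given as a description without a test. The question of the study was how sPIF, a synthetic copy of the embryo-derived peptide preimplantation factor, alters the transcriptome of the non-pregnant endometrium. Uteri came from 7 heifers at an abattoir with ovaries in the follicular stage (stage IV, with a regressing corpus luteum), and the explants were punched from intercaruncular endometrium. From each cow, 1 explant received 100 nM sPIF and 1 served as Control, for 30 h in culture medium with antibiotics and an antimycotic. According to the study's methods, Control wells received the amount of DMSO in which sPIF was dissolved. Age and breed of the animals are not given in the sources used here. Cows 1 to 4 were sequenced on lane 1 and cows 5 to 7 on lane 2, with the lane 2 libraries run 2 times. The study's high progesterone group was cows 2 to 5 and its low progesterone group cows 1, 6 and 7. The stage was read from the ovaries, while the study's text places some of these animals in the luteal phase by their serum progesterone, so stage and hormone do not match in all of them. An explant holds the mixed cells of the tissue and was represented by 1 library, so the spread within a cow and treatment was not measured.

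Tetraspanins are small proteins that cross the plasma membrane several times and gather partner proteins into membrane domains. TSPAN5 belongs to the TspanC8 subgroup, whose members bind the metalloprotease ADAM10, help it to leave the endoplasmic reticulum and bear on which substrates it cuts at the cell surface. Among the substrates of ADAM10 are Notch receptors, cadherins and membrane-anchored chemokines, and Notch signalling takes part in the remodelling of the endometrium. On the ARS-UCD2.0 assembly the annotated genes on either side of TSPAN5 on chromosome 6 are EIF4E and RAP1GDS1, for which no identifier could be matched to the counts.

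The total count ranged from 15885642 to 25771250 per Control library, with a median of 17752182, and from 16377453 to 28625724 per sPIF library, with a median of 21169927. TSPAN5 had between 323 and 1298 counts per library, which puts its counting error at 5.56% of the lowest and 2.78% of the highest count (1 SD). The explants of cow 3 stood apart from the other pairs in the spread of their differences. Over the 13233 genes, the SD of the log2 difference between both explants was 0.759 in cow 3 and between 0.347 and 0.510 in the other 6 cows. The correlation between the deviations of both explants from their group means was low in cow 5 (0.426) as well as in cow 3 (0.412). In the remaining cows it lay between 0.664 and 0.764.

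In the Control explants of cows 1 to 7, TSPAN5 was measured at 26.0, 29.7, 47.7, 48.7, 41.8, 67.2 and 50.0 CPM (counts relative to the TMM-scaled library size). In the sPIF explants of the same cows it was at 20.8, 19.3, 18.5, 27.3, 30.9, 26.1 and 36.7 CPM. The sPIF explant was the lower one in each of the 7 cows, although the ranges of both groups overlapped, with the Control explants of cows 1 and 2 lying below the sPIF explant of cow 5. The mean was 44.5 ± 13.8 CPM in Control and 25.7 ± 6.68 CPM in sPIF explants (SD, n = 7). In the bulk RNA of an explant, fewer cells that express TSPAN5 and less TSPAN5 RNA per cell cannot be told apart. As TSPAN5 was chosen for this difference, its direction is not a finding. Of all genes tested, 212 (1.6%) were lower in the sPIF explant of 7 of 7 cows.

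**Figure D1:**
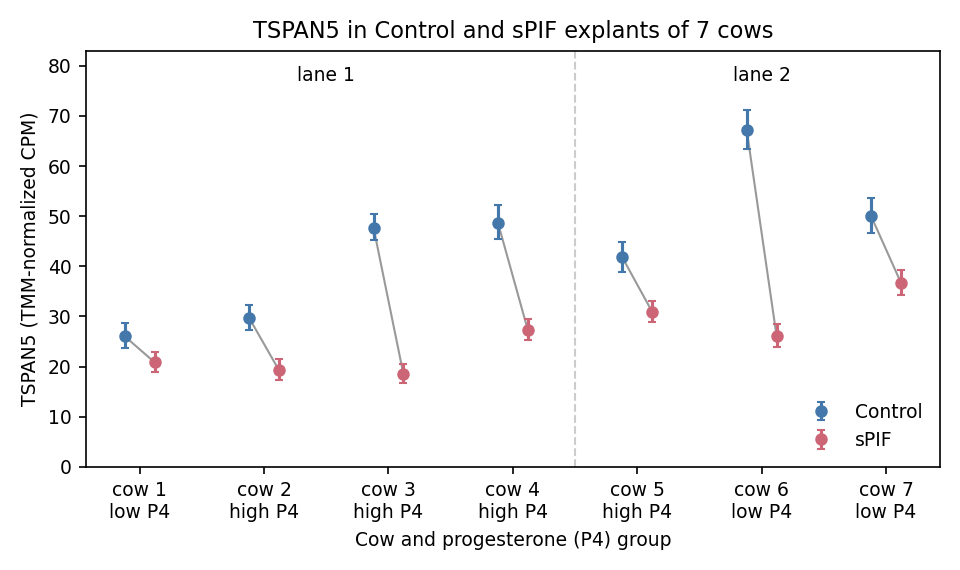
TSPAN5 in TMM-normalized CPM (vertical axis) in the Control (blue) and sPIF (red) explant of each cow (horizontal axis), joined by a grey line, with the sequencing lane above and the progesterone (P4) group below. Bars are exact 95% Poisson intervals of the count and cover counting error only; the sPIF point lies below the Control point in 7 of 7 cows, with the widest gap in cow 6 (67.2 against 26.1 CPM).

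TSPAN5 in the sPIF explant was at 80.0, 64.8, 38.9, 56.1, 74.0, 38.9 and 73.4% of the Control level in cows 1 to 7. As differences of log2 CPM these were -0.32, -0.62, -1.36, -0.83, -0.43, -1.36 and -0.44, with a mean of -0.77 ± 0.44 (SD, n = 7). Cows 3 and 6 had nearly the same difference and lay apart from the rest, but they reached it from different levels, cow 6 with the highest Control value and cow 3 with the lowest sPIF value of their groups. Without cow 3 the mean difference was -0.67 ± 0.38 (SD, n = 6), and without cows 3 and 6 it was -0.53 ± 0.20 (SD, n = 5). The exact 95% Poisson intervals of both explants overlapped in 0 of 7 cows, a description of counting error in the values on which TSPAN5 was chosen. With cow as a block, the fitted log2 fold change was -0.77 (SE 0.14, edgeR), or 1.70-fold lower in sPIF explants. Of the 13233 genes tested, 49 had a lower log2 fold change. The quasi-likelihood test called 0 of them (0%) for sPIF at an adjusted p below 0.1, with 1061 at an unadjusted p under 0.05, while DESeq2 called 100. The biological coefficient of variation that the fit used was 0.180 for TSPAN5, against a median of 0.192 over the genes tested. In this fit it follows a trend of all genes over abundance, so it does not measure the variation of TSPAN5 itself.

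The order of the cows by TSPAN5 was not the same in both groups. From highest to lowest it ran through cows 6, 7, 4, 3, 5, 2 and 1 among Control explants and through cows 7, 5, 4, 6, 1, 2 and 3 among sPIF explants. By their counting intervals, the Control explants of cows 7, 4 and 3 could not be separated from one another, nor could those of cows 2 and 1, while cow 6 lay above all and cow 5 between these sets. Among sPIF explants cow 7 lay above all, cow 4 overlapped both cow 5 and cow 6, and cows 1, 2 and 3 formed the lowest set with overlapping intervals. The highest Control explant held 2.58 times the TSPAN5 level of the lowest, and the highest sPIF explant 1.98 times that of the lowest. The coefficient of variation over cows was 31.0% in Control and 26.0% in sPIF explants, which holds the spread between explants of a cow as well.

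Over the 7 cows, log2 CPM in both explants of TSPAN5 had a Pearson r of 0.478 and a Spearman rho of 0.429, given without a p since the choice of TSPAN5 on the difference between these values bears on their relation. Leaving out cows 1 and 2, the farthest from the median Control level, gave r = -0.098 over 5 cows, so the relation rests on those cows. Each lane held too few cows for a value of its own. Of the sum of squares of TSPAN5 log2 CPM over the 14 libraries, cow accounted for 37.2%, treatment for 49.1% and the rest for 13.6%. The part between lanes, held within that of cow, was 22.4%. As TSPAN5 was chosen on the treatment difference, the share of treatment is a description and is not weighed against that of cow.

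The TSPAN5 difference was also set beside the difference in depth between the explants of a cow. The log2 ratio of the total count, sPIF against Control, was 0.41, -0.23, -0.48, 0.53, 0.62, 0.12 and 0.53 in cows 1 to 7. The sPIF library was the shallower one in cows 2 and 3, and of the cows with the largest TSPAN5 differences, cow 3 had the lowest ratio of all and cow 6 the lowest of those above 0. Against the TSPAN5 log2 difference, this ratio had a Pearson r of 0.635 and a Spearman rho of 0.5 over 7 cows. Leaving out cows 2 and 3, the farthest from the median ratio, gave r = 0.780 over 5 cows. This relation uses the differences on which TSPAN5 was chosen and was itself chosen after seeing them. It is thus a description, and the exact p computed for each coefficient is not read. Beyond this, the part of depth in the TSPAN5 difference was not tested.

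Lane was not used to choose TSPAN5. TSPAN5 in the Control explants was at 38.1 ± 11.8 CPM on lane 1 (SD, n = 4) and 53.0 ± 13.0 CPM on lane 2 (SD, n = 3). In the sPIF explants it was at 21.5 ± 4.01 CPM on lane 1 (SD, n = 4) and 31.3 ± 5.30 CPM on lane 2 (SD, n = 3). Lane 2 was the higher lane in mean in both groups, but the ranges of the lanes overlapped in each, with cow 5 below cows 3 and 4 in Control and cow 6 below cow 4 in sPIF explants. When both explants of a cow were summed into 1 count, TSPAN5 was higher on lane 2 by a log2 fold change of 0.44 (SE 0.20, 95% confidence interval -0.01 to 0.89), with an adjusted p of 0.127 by edgeR's quasi-likelihood test and 0.101 by DESeq2. TSPAN5 was thus not among the 5236 of 13233 genes (39.6%) that the quasi-likelihood test called between lanes, of which 2591 were higher and 2645 lower on lane 2. The cow means of TSPAN5 log2 CPM differed by 0.52 (exact permutation p = 0.0857, adjusted p = 0.514 over 6 exact two-sided tests on TSPAN5). The 35 splits of the cows into 4 and 3 allow a p of 0.0286 at the least. These 6 tests cover the cow means and the sPIF difference, each by lane and progesterone group, and the relation of both explants (Pearson and Spearman). Those on the sPIF difference and on the relation draw on the values that chose TSPAN5 and are not read, but they count in the adjustment. Tests against depth are left out. The call turned on the cows included: without cow 3 the log2 fold change was 0.54 with an adjusted p of 0.0795, and without cow 4 it was 0.53 with an adjusted p of 0.094, by the quasi-likelihood test. No cow was sequenced on both lanes, so lane and the cows on it cannot be told apart.

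The sPIF difference of TSPAN5 averaged -0.78 ± 0.44 in log2 CPM on lane 1 (SD, n = 4) and -0.75 ± 0.53 on lane 2 (SD, n = 3), with cow 3 and cow 6 the lowest of their lane. The interaction of sPIF with lane was 0.04 for TSPAN5 (log2, SE 0.30, 95% confidence interval -0.63 to 0.72). TSPAN5 was chosen on these same differences, and a choice of a difference shared by the cows favours a small interaction, so this value is a description without a p. It was 0.35 without cow 6 and turned to -0.15, -0.11 and -0.11 without cow 3, cow 5 or cow 7. The quasi-likelihood test called 0 of 13233 genes (0%) for this interaction, with 1516 at an unadjusted p under 0.05, and DESeq2 called 175. The interval reached nearly as far to either side as the sPIF difference of TSPAN5 itself.

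The progesterone groups, a high and a low serum concentration at slaughter, were compared in the same way. TSPAN5 in the Control explants was at 42.0 ± 8.73 CPM in the high group (SD, n = 4) and 47.8 ± 20.7 CPM in the low group (SD, n = 3), where cow 1 was the lowest and cow 6 the highest of all 7 cows. In the sPIF explants it was at 24.0 ± 6.09 CPM in the high group (SD, n = 4) and 27.9 ± 8.09 CPM in the low group (SD, n = 3). The high group thus lay within the range of the low group in Control explants, and both groups overlapped in sPIF explants. For the summed counts of a cow, the log2 fold change of TSPAN5, high against low, was -0.15 (SE 0.26, 95% confidence interval -0.75 to 0.44), with an adjusted p of 0.891 by edgeR and an exact permutation p of 0.571 (adjusted p = 0.857) for the cow means of log2 CPM. The quasi-likelihood test called 0 of 13233 genes (0%) between the progesterone groups, with 458 at an unadjusted p under 0.05, and DESeq2 called 24. The groups were uneven over lanes, with 3 of 4 high cows on lane 1 and 2 of 3 low cows on lane 2, too few for a value within a lane. With lane as a term in the fit, added after seeing the data, the log2 fold change of TSPAN5 turned to 0.11 (SE 0.25, 95% confidence interval -0.47 to 0.69). By that fit edgeR called 0 genes between the progesterone groups, with 556 at an unadjusted p under 0.05, and DESeq2 called 50. In the fit without lane, the log2 fold change of TSPAN5 was 0.029 without cow 6 and -0.40 without cow 1. The direction of the progesterone difference in TSPAN5 thus depended on the fit and on 1 cow.

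The sPIF difference of TSPAN5 averaged -0.81 ± 0.40 in log2 CPM in the high (SD, n = 4) and -0.71 ± 0.57 in the low progesterone group (SD, n = 3). Each group held 1 of the cows with the largest differences, cow 3 in the high and cow 6 in the low group. The interaction of sPIF with progesterone group was -0.10 for TSPAN5 (log2, SE 0.31, 95% confidence interval -0.80 to 0.59), a description for the same reason. It was -0.43 without cow 6 and turned to 0.080, 0.081 and 0.039 without cow 1, cow 3 or cow 7. No gene was called for it by edgeR (0 of 13233, 0%, with 187 at an unadjusted p under 0.05) or DESeq2 (0).

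The partners and relatives of TSPAN5 could be followed only as far as identifiers carried a symbol. Symbols came from a table of 102 identifiers that the study chose for their sPIF response in these samples, which is not independent of the TSPAN5 choice. TSPAN5 was the 1 match among 33 tetraspanins and among 6 TspanC8 members. Of 6 ADAM proteases and their regulators and 30 Notch pathway genes, 0 were matched, so ADAM10 is not described. Of 27 ADAM10 substrates, 1 was matched, CX3CL1, a membrane-anchored chemokine that ADAM10 and ADAM17 release from the cell surface. CX3CL1 ranged from 26.7 to 70.7 CPM in Control (median 49.0) and from 13.4 to 53.1 CPM in sPIF explants (median 21.8). It was lower in the sPIF explant of 7 of 7 cows, as were 1.6% of all genes tested. Its log2 differences lay between -0.16 and -1.86, the largest in cow 5, where TSPAN5 differed by -0.43. Over the 7 cows the log2 differences of CX3CL1 and TSPAN5 had an r of 0.039. Between lanes, CX3CL1 was called as lower on lane 2 by the quasi-likelihood test (log2 fold change -0.87, adjusted p = 0.0468), beside 39.6% of all genes called in either direction.

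The study's list of plasma membrane genes, also chosen on these samples, had 16 of 17 members matched, TSPAN5 included. Of these, 14 had a negative and 2 a positive log2 fold change with sPIF (median -0.52), and 0 of 16 were called by the quasi-likelihood test. Over all genes tested, 49.7% had a negative value (median 0.00). Of the 85 other tested genes with a symbol, all from the study's sPIF table, 66 had one. Since the list was chosen on its sPIF response, nothing is read from this split. TSPAN5, at -0.77, was the lowest after PTGDR, a prostaglandin D2 receptor (-1.25), and LPL, the lipoprotein lipase (-0.96). At the other end stood SLC34A2, a phosphate transporter of epithelia (0.98), and GNA14, a G protein alpha subunit (0.72). Between lanes, 5 of 16 were called (EMP3, CALCRL, RAB8B, RHOF and SLC1A5), beside 39.6% of all genes, and TSPAN5 was not among them.

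Smooth muscle was the 1 cell type of which markers could be set beside TSPAN5. Of the 8 smooth muscle markers, 2 had a matched identifier, CNN1 (calponin 1, an actin-binding protein) and SMTN (smoothelin, a protein of contractile fibres). Their summed level in cows 1 to 7 was 75.7, 95.8, 117, 152, 209, 194 and 258 CPM in Control and 55.1, 71.9, 53.7, 93.1, 154, 152 and 198 CPM in sPIF explants. It was lower in the sPIF explant of 7 of 7 cows, by the widest margin in cow 3 (log2 ratio -1.12) and the narrowest in cow 6 (-0.36). It was higher in each cow of lane 2 than in the cows of lane 1 in both groups. With TSPAN5 over the 14 libraries, log2 CPM had an r of 0.810 for CNN1 and 0.729 for SMTN, and over the 7 within-cow differences 0.593 and 0.235. Both genes could be matched only because the study chose them for their sPIF response. Their lower level in 7 of 7 cows, shared by 1.6% of all genes tested, is thus no measure of smooth muscle content. Both were called between lanes by the quasi-likelihood test (adjusted p = 0.0298 and 0.00397), as were 39.6% of all genes. The part of smooth muscle content in the TSPAN5 levels was not tested. Of 10 epithelial, 9 stromal, 7 endothelial, 10 leukocyte and 6 endometrial markers, 0 were matched, so the tissue label could not be checked against them.

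Among 85 other genes with a symbol, the levels most like those of TSPAN5 over the 14 libraries were those of RASSF1 (r = 0.914), IRF1 (0.902), HYOU1 (0.887), STAT5A (0.880) and CYSLTR2 (0.868). RASSF1 is a Ras-association tumour suppressor that binds microtubules, IRF1 an interferon-induced transcription factor, HYOU1 a chaperone of the endoplasmic reticulum, STAT5A a transcription factor activated by prolactin and cytokines, and CYSLTR2 a receptor of cysteinyl leukotrienes. These libraries share cow, lane and treatment, and the likeness says nothing of shared function or control. Over all 13232 other genes tested, the median r with TSPAN5 was -0.023, and 4 genes were above 0.9, the highest of them ENSBTAG00000016855 (0.937), which carries no symbol. The median over the 85 named genes was 0.697. The study chose them on the contrast on which TSPAN5 was chosen, and the part of that choice in the median was not separated from shared cow and lane differences.

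RASSF1, the gene with the highest r among them, ranged from 84.7 to 159 CPM in Control (median 145) and from 70.2 to 124 CPM in sPIF explants (median 90.2). Like TSPAN5 it was lowest in cows 1 and 2 among Control explants, and among sPIF explants lowest in cows 1, 2 and 3 and highest in cow 7, but its sPIF explant was the lower one in 6 of 7 cows, cow 1 being the exception. Its r with TSPAN5 was 0.844 over Control and 0.971 over sPIF libraries alone, and 0.923 over the 8 libraries of lane 1 and 0.835 over the 6 of lane 2. For the other 4 genes r lay between 0.794 and 0.937 in each of these subsets, which were chosen after seeing the data. Above an r of 0.8 with TSPAN5 there were 482 of 13232 genes over Control and 790 over sPIF libraries alone, and 305 over those of lane 1 and 460 over those of lane 2. As the 5 genes were picked on all 14 libraries, their values in parts of these are no independent check. Each of the 5 genes was called as higher on lane 2 by the quasi-likelihood test (adjusted p from 0.0153 for STAT5A to 0.0929 for RASSF1), where 19.6% of all genes were. Likeness to TSPAN5, which was itself higher on lane 2 in mean, favours such genes, so nothing is read from this count.

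Over the 7 within-cow differences, the genes with a symbol most like TSPAN5 were GJC1 (r = 0.961), RGS16 (0.916), FMOD (0.906), RGS2 (0.903) and FSTL3 (0.860). GJC1 is a connexin of gap junctions, RGS16 and RGS2 speed the shut-off of G protein signals, FMOD is a collagen-binding proteoglycan of the matrix, and FSTL3 is a secreted protein that binds activins. GJC1 in the sPIF explants of cows 1 to 7 differed from Control by -0.28, -0.53, -1.34, -0.57, -0.58, -1.33 and -0.33 in log2 CPM. As in TSPAN5, cows 3 and 6 lay apart from the others at nearly the same value and cow 1 had the smallest difference. RGS16 and RGS2 were lower in the sPIF explant of 7 of 7 cows, as were 212 of all 13233 genes tested (1.6%). FMOD and FSTL3 were lower in 6 of 7, with cow 1 at 0.47 for FMOD and 0.12 for FSTL3. These genes were picked by likeness to the TSPAN5 differences, from genes that the study chose for their sPIF response. Nothing is thus read from their shared direction.

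Over the same 7 points, 126 of 13232 genes had an r above 0.9 with the TSPAN5 differences, among which GJC1 ranked at 16 behind genes without a symbol. The highest, ENSBTAG00000002936 (r = 0.982), was lower in the sPIF explant of cows 3 and 6 and higher in that of the other 5 cows, so a high r does not mean a shared direction. Leaving out cows 3 and 6, as decided after seeing the values, gave an r with TSPAN5 over 5 cows of 0.678 for GJC1, 0.179 for RGS16, 0.859 for FMOD, 0.993 for RGS2 and 0.660 for FSTL3. Over these 5 cows, 243 of 13232 genes had an r above 0.9 with TSPAN5 and 668 one above 0.8. For RGS16 the likeness to TSPAN5 thus rested on those cows. Over the 14 libraries, by contrast, the levels of RGS2 and RGS16 were little like those of TSPAN5 (r = 0.226 and 0.450).

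**Figure D2:**
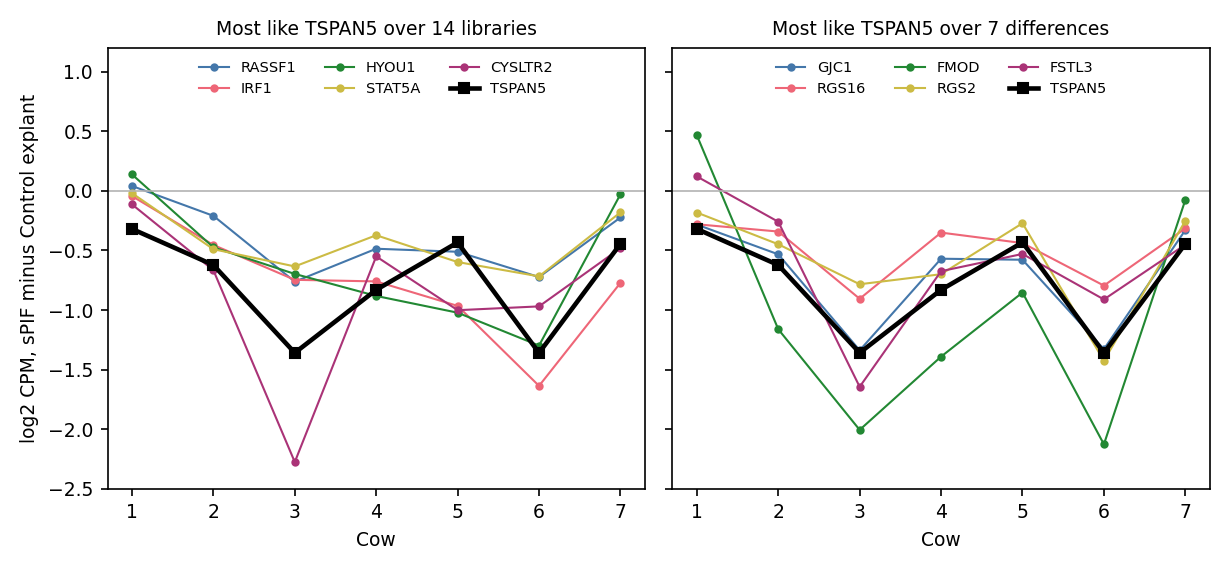
Difference of log2 CPM, sPIF minus Control explant (vertical axis), in each cow (horizontal axis) for TSPAN5 (black squares) and the 5 named genes most like it over the 14 libraries (left) or over the 7 within-cow differences (right). Lines join the points of 1 gene and stand for no order of the cows; cows 3 and 6 hold the lowest TSPAN5 differences, both at -1.36, and the genes on the right were picked on these differences.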

How the data were processed

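Paired-end reads were trimmed by the authors with Trimmomatic 0.36.0, mapped with Bowtie2 2.2.6 to UMD3.1 (Ensembl 89) and counted per gene with featureCounts 1.4.6; the deposited values are raw counts, with both runs of the lane 2 libraries added. A row of column totals was left out. The authors tested with DESeq2.

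Counts were tested here with edgeR 4.0.16 in R 4.3.3 (TMM, quasi-likelihood, Benjamini-Hochberg over the 13233 genes that reached 10 counts in each library, threshold 0.1), with cow as a block for sPIF and its interactions, and on counts summed per cow for lane and progesterone. The fits for sPIF, for lane and for their interaction were checked on simulated counts for the recovery of fold changes, and those for progesterone group were not. Log2 CPM used a prior count of 2. The alternatives were DESeq2 1.42.0, other scalings and filters, no block, 1 treatment alone, lane and progesterone in 1 fit, a prior count of 0.5 and each cow left out. Lane and progesterone group came from the study's text. Pairing came from the labels; the deviations of both explants from their group means correlated at 0.412 to 0.764 over genes, with a median of 0.667.

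TSPAN5 and the lists (tetraspanins, TspanC8, ADAM proteases, Notch pathway, ADAM10 substrates, plasma membrane genes, cell markers) were chosen with earlier results of these data known. The named genes are TSPAN5, list members called or at the ends of a list, the 5 genes with a symbol and the highest Pearson r over 14 libraries or 7 within-cow differences, and the neighbouring genes. The reference gene table matched 0 of 24616 identifiers, so symbols came from the study's supplementary table, where 27 identifiers broken by extraction were repaired. Of its 102 genes 89 carried a symbol, and 86 of these were tested. Sequences were not used here.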

Additional observations from a re-analysis of the deposited data

Results flagged for a closer look

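Of 43 groups checked, 39 of 7 values and 4 of 4 values, 2 had 1 value that lay far from the rest, where chance flags about 1 in 20 groups (2.15 of 43). Both were in genes compared with TSPAN5, and 0 were in TSPAN5 itself. CYSLTR2 had a log2 difference of -2.28 in cow 3, a gap from the other 6 cows that was wide against the whole range. GJC1 reached 19.1 CPM in the sPIF explant of cow 5, above the other 6 sPIF explants.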

How the results depend on the processing

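The TSPAN5 log2 fold change for sPIF lay between -0.85 and -0.67 over 13 alternatives. Without the block for cow it was -0.79, and the quasi-likelihood test called 0 genes for sPIF with and without this pairing. TSPAN5 was lower in 7 of 7 cows under each scaling tried, of which median-of-ratios, upper quartile and total count were added after seeing the data. As TSPAN5 was chosen for this difference, its keeping of the sign is no sign of stability.

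The lane difference of TSPAN5 kept its sign in 15 of 15 alternatives, with adjusted p from 0.0615 to 0.314, and passed 0.1 in 4. It was 0.47 with upper quartile scaling (adjusted p = 0.0942) and 0.54 in sPIF explants alone (adjusted p = 0.0615), and lay between 0.33 and 0.54 with a cow left out. The cause was not tested. With a cow left out, the progesterone difference of TSPAN5 ranged from -0.40 to 0.029 and was positive without cow 6. With lane as a term, added after seeing the data, it was 0.11. The interaction with lane ranged from -0.15 to 0.35, negative without cow 3, 5 or 7 (-0.15, -0.11 and -0.11). The interaction with progesterone group ranged from -0.43 to 0.081, positive without cow 1, 3 or 7 (0.080, 0.081 and 0.039).

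DESeq2 called 100 genes for sPIF, 24 for progesterone and 175 for the interaction with lane, where edgeR called 0. Genes called between lanes numbered 3546 to 5637. At 323 to 1298 counts of TSPAN5 per library, counting error was between 2.78 and 5.56%.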
